A study of Homo sapiens with 4 samples.

Results

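Epithelial-mesenchymal transition genes were followed in ovarian cancer cells in which GALNT3 was targeted by a short hairpin RNA. The set holds 10 genes, namely the epithelial markers CDH1 and EPCAM, the catenin CTNNB1, the mesenchymal markers CDH2 and VIM, and the transcription factors SNAI1, SNAI2, TWIST1, ZEB1 and ZEB2. Its members are all probes, control spots aside, whose transcript accession belongs to one of these genes. They are 13 probes of 41000 on the array, of which 25398 could be assigned to 17240 genes. The list is a textbook choice that did not use the measured ratios. It was drawn up with earlier results of the same arrays known, so the pattern within it is a description and not independent evidence of a shift.

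In the epithelial-mesenchymal transition, cells loosen their contacts with neighbours and gain a motile, matrix-producing form. E-cadherin (CDH1) joins epithelial cells at the adherens junction and is tied to the actin cytoskeleton through catenins, while N-cadherin (CDH2) and the intermediate filament vimentin (VIM) mark the mesenchymal state. The SNAI, TWIST and ZEB factors are DNA-binding regulators of the programme, and SNAI and ZEB proteins are known as repressors of CDH1 that bind E-box sequences.

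The cells were A2780s, a line from a human ovarian adenocarcinoma. Clones sh-G1 and sh-G2 were stably transfected with a GALNT3 short hairpin RNA in the pSilencer puro vector, and the ctrl clone was mock-transfected with this vector. All 3 went through puromycin selection, and both knockdown clones carried the same hairpin, so a clone effect and a hairpin effect cannot be told apart. Each knockdown clone was compared with the ctrl clone on 2 Agilent Whole Human Genome arrays of 2 colours, with the knockdown clone in Cy5 on replicate 1 and in Cy3 on replicate 2. Ratios are given as log2 of knockdown over ctrl, so that -1 is a level of 1 in 2.

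All 4 arrays lay on 1 slide and were read in 1 scan. The median spot intensity of a channel was between 451.5 and 802.5 over a median local background of 38 to 41, and 0 spots were saturated. The share of spots well above background was 88.1% to 97.0% in the knockdown channel and 95.9% to 97.6% in the ctrl channel. The dyes left a mark on the ratios. Across the 39152 probes kept, which are not independent replicates, the dye-swapped arrays of sh-G1 correlated with r = 0.32 and those of sh-G2 with r = 0.19, whereas replicate 1 of both clones correlated with r = 0.61 and replicate 2 with r = 0.73. The arrays of a clone were therefore averaged and counted as 1 replicate, which gives n = 2 clones. The SE of such a mean is taken from the 2 clone values alone. The limma p-value rests on a moderated error, which also draws on the spread of all probes and can be larger or smaller. It was 0.040 against an SE of 0.0032 for CDH1. For CDH2 it was 0.27 against 0.49, and for ZEB2 0.11 against 0.19. The single ctrl clone was on every array, and testing the mean against 0 leaves out its own spread. The single probe of the targeted gene, GALNT3 (A_24_P114249), gave ratios of -0.09, 0.08, 0.12 and -0.14, with raw intensities of 61 to 91.5 over a background of 36.5 to 43. It lay only 0.30 above the detection limit in the ctrl channel, on the log2 scale, so the knockdown could not be checked on these arrays.

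Among the 10 genes, the mesenchymal cadherin CDH2 and the repressor ZEB2 were lower in both knockdown clones. The other 8 genes showed no comparable difference in both clones, while SNAI2 was 1.80-fold lower in sh-G2 alone. CDH2 and ZEB2 were the only members that were at least 1.5-fold lower on all 4 arrays, 2 of 13 probes against 0.919% of all probes kept. None of the 13 was at least 1.5-fold higher on all 4 arrays, against 0.23% of all. With the mean of the clones tested by limma, 0 of 13 probes had an adjusted p under 0.05, against 0.838% of all probes, 0.138% higher and 0.7% lower, and CDH2 and ZEB2 were the 2 with an unadjusted p under 0.05, against 13.3%. The ratios were below 0 on all 4 arrays for 3 probes (CDH2, ZEB2 and EPCAM; 9.04% of all probes), above 0 on all 4 for 1 probe (ZEB1; 6.21% of all) and of mixed sign for the other 9 probes, which belong to 6 genes. As the RNA came from whole cultures, fewer cells with a transcript and less of it per cell cannot be told apart.

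**Figure D1:**
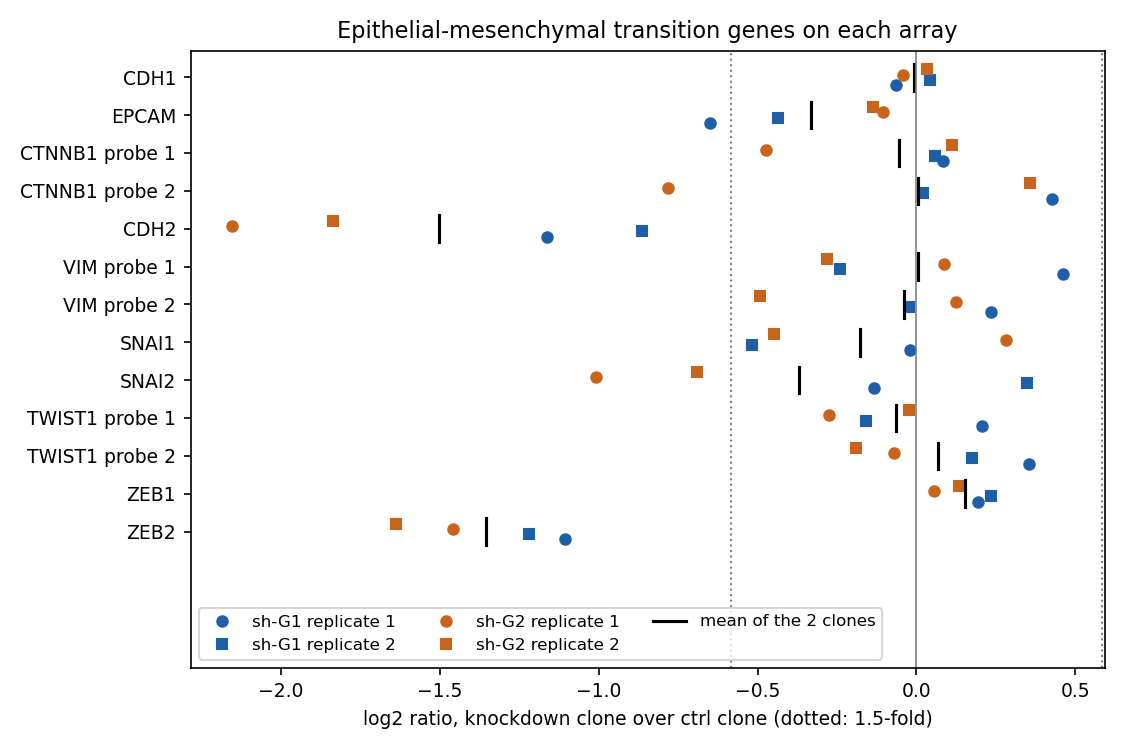
Log2 ratio of knockdown over ctrl (x axis) for each of the 13 probes (y axis) on the 4 arrays. Blue points are sh-G1, orange points sh-G2, circles replicate 1 (knockdown in Cy5), squares replicate 2 (knockdown in Cy3), and the black bar is the mean of the 2 clones. All 4 points of CDH2 and of ZEB2 lie below the left dotted line, which marks a 1.5-fold lower level, and no other probe has all 4 points past a dotted line.

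ZEB2 encodes a zinc finger repressor of CDH1. Its probe (A_23_P142560) gave normalised log2 signals of 10.33, 10.45, 10.42 and 10.64 in the ctrl channel of the 4 arrays, against 9.22 and 9.23 in sh-G1 and 8.97 and 9.0 in sh-G2. The knockdown signals lay below every ctrl signal, and the raw intensities of 424.5 to 538.5 against 1217 to 1818.5 did not overlap either. Replicates 1 and 2 of sh-G1 had log2 ratios of -1.11 and -1.22, and replicates 1 and 2 of sh-G2 had -1.46 and -1.64. Its mean of -1.36 (SE 0.19, n = 2 clones) is a 2.56-fold lower level, with a limma adjusted p of 0.058. This value lay just outside the threshold in the fit over 4 arrays. With the software's own ratios the limma adjusted p was 0.0499. Under the other changes of background, scaling or filter with all 4 arrays it was between 0.0546 and 0.0675. Giving the ctrl clone the same spread as a knockdown clone raised the adjusted p from 0.058 to 0.369. With any 1 array left out, the mean was between -1.40 and -1.31. Such a fit leaves 1 clone in 1 dye orientation, so the dye does not cancel and its p-values are not given.

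CDH2 encodes N-cadherin, the adhesion molecule whose gain and loss are followed together with E-cadherin in this transition. Its probe (A_23_P38732) gave normalised log2 signals of 10.82, 10.47, 10.92 and 10.14 in the ctrl channel, against 9.66 and 9.60 in sh-G1 and 8.77 and 8.31 in sh-G2. The groups did not overlap, and sh-G2 was lower than sh-G1. As log2 ratios, this was -1.16 and -0.86 for replicates 1 and 2 of sh-G1 and -2.15 and -1.84 for replicates 1 and 2 of sh-G2. CDH2 was 2.02-fold lower in sh-G1 and 3.99-fold lower in sh-G2, with a mean log2 ratio of -1.504 (SE 0.49, n = 2 clones, limma adjusted p = 0.180). With any 1 array left out, where the dye does not cancel in 1 clone, the mean was between -1.58 and -1.42. Giving the ctrl clone the spread of a knockdown clone raised the limma adjusted p from 0.180 to 0.951. With the clone as a random block, the adjusted p was 0.0137 for CDH2 and 0.00147 for ZEB2, where 6.83% of all probes passed. That fit estimated a correlation of -0.66 between the arrays of a clone, a negative value, under which a mean over the arrays of a clone has a smaller error than over independent arrays.

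Since CDH2 and ZEB2 were the members that were lower together, the 250 bases before their transcription starts are shown from RefSeq (GRCh38.p14, minus strand), with matches to the E-box CANNTG in capitals. The ZEB2 window is chr2:144520120-144520369 and the CDH2 window, before the outer of its 2 listed starts, is chr18:28177131-28177380.
ZEB2: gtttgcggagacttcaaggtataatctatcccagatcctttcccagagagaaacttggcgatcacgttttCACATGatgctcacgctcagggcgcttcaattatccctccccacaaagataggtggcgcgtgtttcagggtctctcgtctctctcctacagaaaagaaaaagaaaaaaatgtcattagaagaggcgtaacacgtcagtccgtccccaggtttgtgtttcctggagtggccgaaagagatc
CDH2: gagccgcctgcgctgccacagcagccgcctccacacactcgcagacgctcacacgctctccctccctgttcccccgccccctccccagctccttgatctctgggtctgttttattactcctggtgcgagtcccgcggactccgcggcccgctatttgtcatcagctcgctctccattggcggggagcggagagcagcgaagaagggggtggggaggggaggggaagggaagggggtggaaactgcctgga
The ZEB2 window holds 1 such match, CACATG, which starts 180 bases before the transcription start, and the CDH2 window shown holds 0. The window before the inner CDH2 start, not shown, holds 1 match, CAGATG, which starts 97 bases before that start. None of these windows holds CACCTG, a form of the E-box bound by SNAI and ZEB factors, on either strand. Shorter forms of this motif, such as CACCT, were not counted. Of 35116 promoter windows of 250 bases, 61.82% hold CANNTG and 17.49% hold CACCTG. The count says only that these letters are not in these windows. Windows were listed for 5 of the 10 genes.

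The epithelial side of the axis was measured through CDH1 and EPCAM. CDH1 (A_23_P206359) was dim, with raw intensities of 140.45 to 222.6 in the ctrl channel and 127.4 to 188.55 in the knockdown channel over a background of 36.15 to 44.85. Its signal in the ctrl channel lay 1.26 above the detection limit on the log2 scale, against 3.16 for the median probe. This leaves little room to measure a decrease, and whether an increase would show in full was not tested. Its log2 ratios were -0.06 and 0.04 for sh-G1 and -0.04 and 0.03 for sh-G2, and the channels overlapped. The mean was -0.01 (SE 0.0032, n = 2 clones, limma adjusted p = 0.966), with a moderated error of 0.040. This probe was printed on 40 spots in all, 10 on each array.

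EPCAM, an epithelial cell surface adhesion molecule, had log2 ratios of -0.65 and -0.44 in sh-G1 and of -0.10 and -0.14 in sh-G2 (A_23_P91081). All were below 0, and sh-G1 was lower than sh-G2. The normalised log2 signals of the ctrl channel were 9.21, 9.14, 9.31 and 9.21, and one knockdown signal, 9.20 on replicate 1 of sh-G2, fell within them. The mean log2 ratio of -0.33 (SE 0.21, n = 2 clones) had a limma adjusted p of 0.405. EPCAM was thus 1.46-fold lower in sh-G1 and 1.09-fold lower in sh-G2, short of the 1.5-fold threshold.

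CTNNB1 encodes beta-catenin, which links cadherins to the cytoskeleton and carries Wnt signals in the nucleus. Its brighter probe (A_23_P29495), also printed 10 times per array, had log2 ratios of 0.08, 0.06, -0.47 and 0.11. The dimmer probe (A_23_P29499) had 0.43, 0.02, -0.78 and 0.36. Both are in the order sh-G1 replicates 1 and 2 and sh-G2 replicates 1 and 2. In both probes replicate 1 of sh-G2 stood apart as the only array below 0. The means were -0.05 (SE 0.13) and 0.01 (SE 0.22), with limma adjusted p of 0.871 and 0.992. Without that array the means were 0.09 and 0.29.

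VIM was by raw intensity a bright gene, with 127788 to 253848 in its 2 probes, and the scanner software had scaled every one of these spots up from its low-gain scan. The log2 ratios of the first probe (A_23_P161194) were 0.46 and -0.24 in sh-G1 and 0.09 and -0.28 in sh-G2. Those of the second (A_23_P161190) were 0.23 and -0.02 in sh-G1 and 0.12 and -0.49 in sh-G2. In both probes and both clones the array with the knockdown in Cy5 was above 0 and the array with the knockdown in Cy3 below 0, so the sign followed the dye. Averaging the dyes gave 0.01 (SE 0.10) and -0.04 (SE 0.14, n = 2 clones), with limma adjusted p of 0.985 and 0.915. VIM therefore stayed within 1.14-fold of the ctrl level in each clone by both probes, while the other mesenchymal marker, CDH2, was 2.02-fold and 3.99-fold lower.

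**Figure D2:**
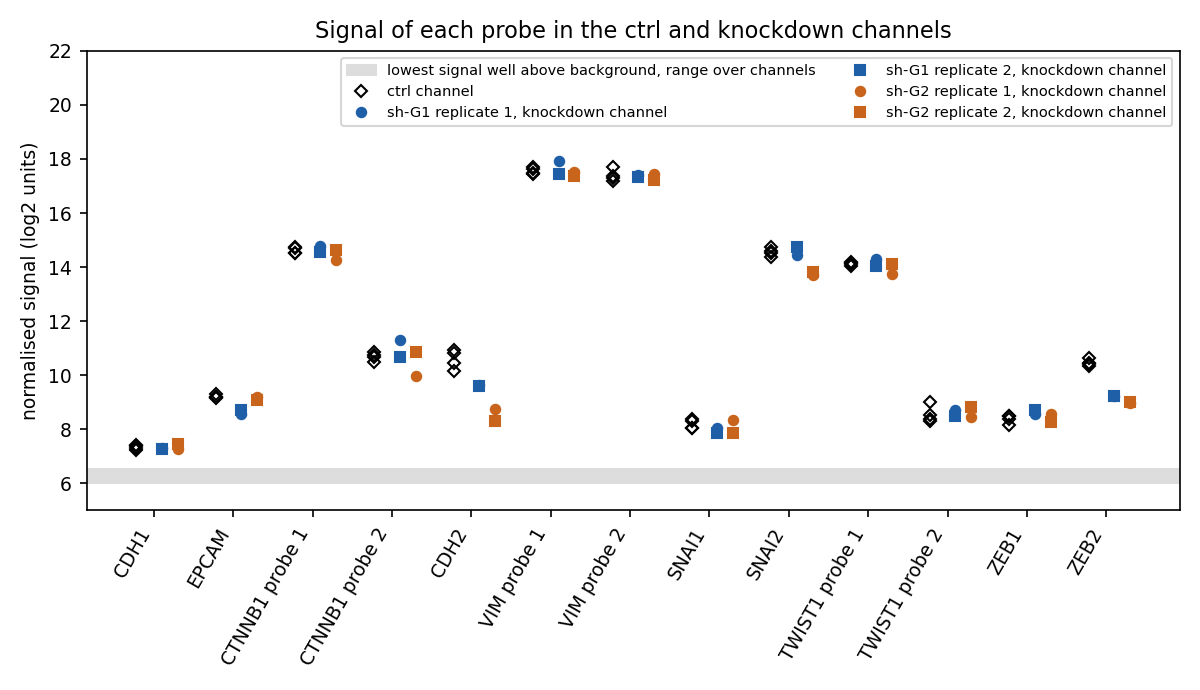
Normalised log2 signal (y axis) of each of the 13 probes (x axis) in the ctrl channel (open diamonds, 4 arrays) and in the knockdown channel of sh-G1 (blue) and sh-G2 (orange). The grey band is the range, over the channels, of the lowest signal well above background. The open diamonds of CDH2 and ZEB2 stand clear of the coloured points, those of the remaining probes overlap with them, and CDH1 lies closest to the band. Probes differ in their response, so heights are comparable within a probe and not between probes.

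The SNAI factors differed from each other in how the clones behaved. SNAI2 (Slug) had log2 ratios of -0.13 and 0.35 in sh-G1 and of -1.01 and -0.69 in sh-G2 (A_23_P169039). It was 1.80-fold lower in sh-G2 on average and near the ctrl level in sh-G1, and its mean of -0.37 (SE 0.48, n = 2 clones) had a limma adjusted p of 0.666. Both arrays of sh-G2 were past 1.5-fold, as were 1.42% of all probes on the lower side. SNAI1 (Snail) had log2 ratios of -0.02 and -0.52 in sh-G1 and of 0.28 and -0.45 in sh-G2 (A_23_P131846). Both arrays with the knockdown in Cy3 were lower than those with it in Cy5, and the dye term was 0.31. The mean was -0.18 (SE 0.09, adjusted p = 0.405).

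TWIST1, a basic helix-loop-helix factor, had log2 ratios of 0.21, -0.16, -0.28 and -0.02 by its brighter probe (A_23_P71067) and of 0.35, 0.18, -0.07 and -0.19 by its dimmer probe (A_23_P71073), in the order sh-G1 replicates 1 and 2 and sh-G2 replicates 1 and 2. By the dimmer probe both arrays of sh-G1 were above 0 and both of sh-G2 below 0. The brighter probe did not separate the clones in this way. The means were -0.06 (SE 0.09) and 0.07 (SE 0.20), with limma adjusted p of 0.814 and 0.878.

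ZEB1, the paralogue of ZEB2, was the member above 0 on every array (A_23_P202013). Its log2 ratios were 0.19 and 0.23 in sh-G1 and 0.06 and 0.13 in sh-G2. The mean of 0.15 (SE 0.06, n = 2 clones) is a 1.11-fold higher level, with a limma adjusted p of 0.378. Its raw intensities of 308 to 333 in the knockdown channel fell within the 270 to 455 of the ctrl channel. ZEB1 and ZEB2 thus lay on opposite sides of 0 on all 4 arrays. The difference between these genes was not tested.

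The clones were compared with each other on the 4 arrays, with a term for the dye. None of the 13 probes differed between sh-G1 and sh-G2 at an adjusted p under 0.05, where 0.00766% of all probes did, and 5 of 13 had an unadjusted p under 0.05, against 7.4% of all. The 2 with the largest differences were CDH2, lower in sh-G2 by a log2 difference of -0.98 (SE 0.10, limma adjusted p = 0.144), and SNAI2, with -0.96 (SE 0.10, adjusted p = 0.144). The other 3 were EPCAM with 0.42 (SE 0.11, adjusted p = 0.446), the dimmer TWIST1 probe with -0.40 (SE 0.10, adjusted p = 0.447) and ZEB2 with -0.38 (SE 0.10, adjusted p = 0.452). These SE values are moderated errors, which also draw on the spread of all probes, from a fit with 1 residual degree of freedom per probe. They cover the spread between arrays only.

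**Figure D3:**
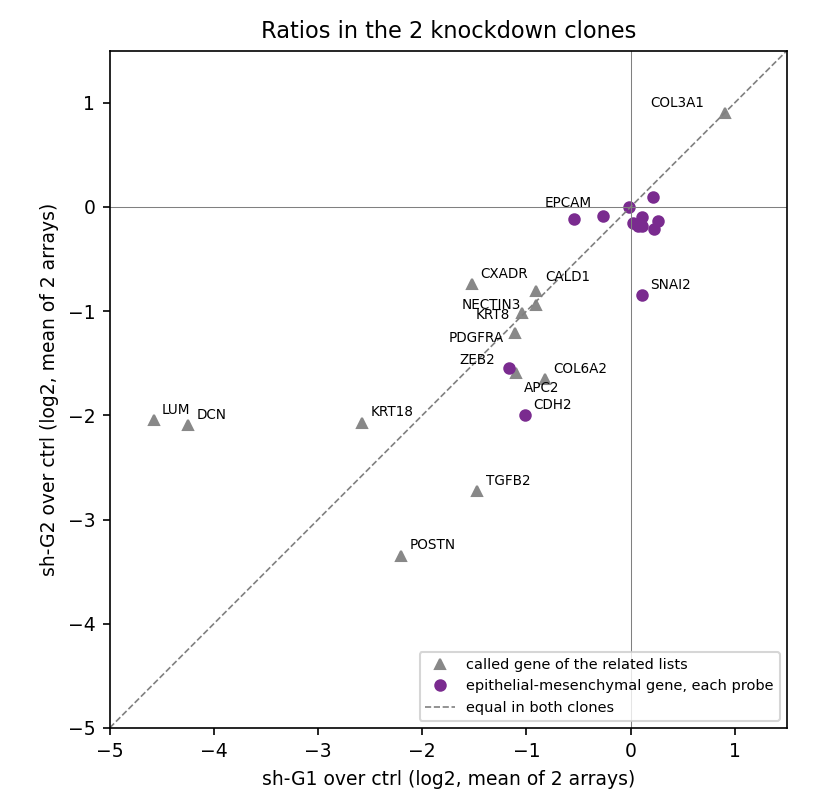
Mean log2 ratio in sh-G2 (y axis) against that in sh-G1 (x axis), each over 2 arrays. Purple circles are the 13 probes of the epithelial-mesenchymal genes and grey triangles the called genes of the related lists, and the dashed line marks equal ratios. Of the purple circles, CDH2 and ZEB2 lie furthest below 0 in both clones, and SNAI2 lies below 0 only in sh-G2. EPCAM, SNAI1 and CDH1 also lie below 0 in both clones, but nearer to it. LUM and DCN lie further below 0 in sh-G1 and POSTN and TGFB2 in sh-G2.

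Genes around these 10 were taken from 9 lists of 260 genes, of which 249 were measured, each by its brightest probe. The lists were also drawn up with results of these arrays known, and some listed genes belong to gene lists that the study chose on the same arrays, so the counts describe and do not test a direction. Over all 9 lists, limma called 1 gene higher and 5 lower, against 0.184% and 0.906% of the 16882 genes measured, and 1 gene was at least 1.5-fold higher and 12 lower on all 4 arrays, against 0.355% and 1.29%. The median mean log2 ratio of each list lay between -0.04 and 0.01, beside -0.00 for all genes. At an unadjusted p under 0.05 there were 51 of the 249 listed genes, against 15.3% of all genes measured.

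**Figure D4:**
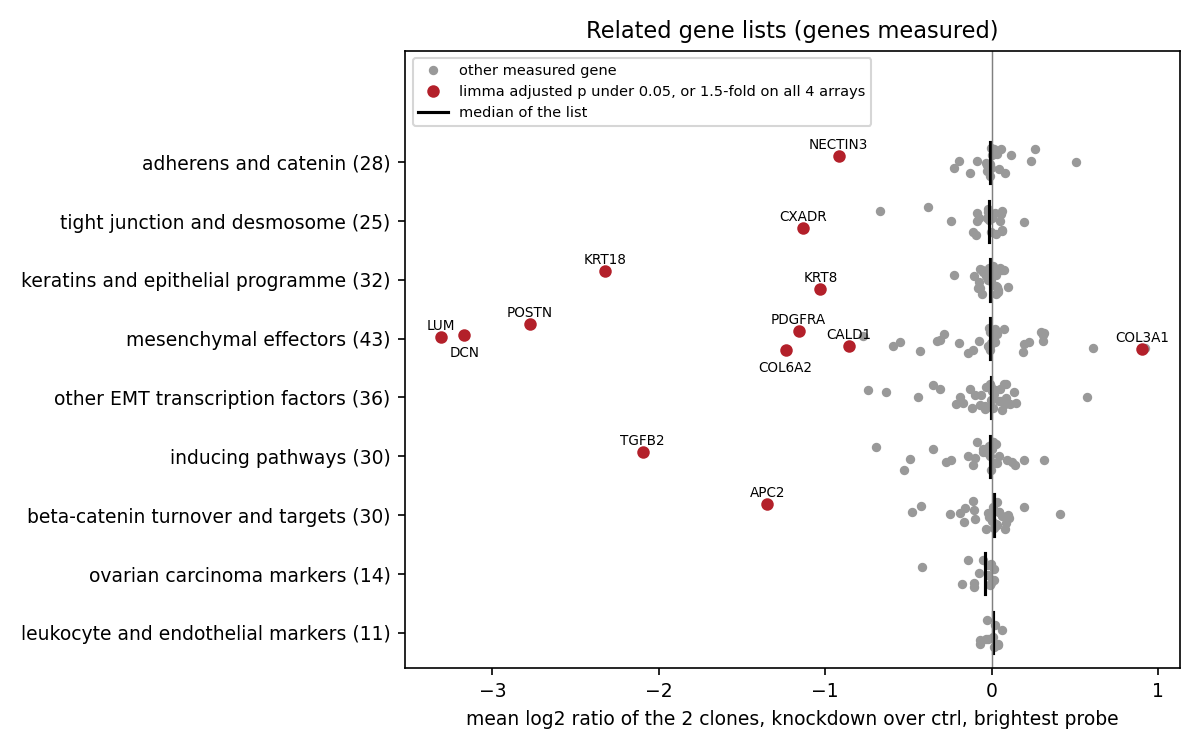
Mean log2 ratio of the 2 clones (x axis) for the brightest probe of each measured gene in the 9 related lists (y axis, number of genes measured in parentheses). Red points are genes with a limma adjusted p under 0.05 or at least 1.5-fold on all 4 arrays, grey points the other genes, and black bars the list medians. The bars lie at 0 and the red points, COL3A1 apart, lie to the left.

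Among the 28 measured cadherins, nectins and catenins of the adherens junction, 1 fell, 0 rose and 27 did not pass. The 1 was NECTIN3, an immunoglobulin-like adhesion molecule of the junction, with log2 ratios of -1.19, -0.62, -1.15 and -0.73. Its mean was -0.92 (SE 0.02, n = 2 clones, limma adjusted p = 0.0214), with a moderated error of 0.041. In both clones replicate 1 lay below replicate 2, a spread that the SE over clones leaves out. The probe was dim, with a mean log2 signal of 7.52 against 7.34 for CDH1. The cadherin furthest from 0 was CDH10 with 0.51 (adjusted p = 0.374). CDH2 was thus the cadherin with the largest difference among those measured here. Of 25 tight junction, desmosome and polarity genes, 0 passed limma (5 at an unadjusted p under 0.05) and 1 was 1.5-fold lower on all 4 arrays. It was CXADR, a junctional adhesion molecule, with -1.70, -1.35, -0.69 and -0.79 (mean -1.13, SE 0.39, adjusted p = 0.198), and its other 2 probes had means of -0.98 and -0.69. CXADR did not pass the 1.5-fold rule with the software's own ratios, with the series matrix or by the median of its probes.

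Of 32 keratins and epithelial programme genes, 2 fell, 0 rose and 30 did not pass. They were KRT18 and KRT8, partner keratins of simple epithelia. KRT18 had log2 ratios of -2.31, -2.84, -1.92 and -2.22, a 5.00-fold lower mean level (mean -2.32, SE 0.25, n = 2 clones, limma adjusted p = 0.0365), and its other 2 probes gave -2.50 and -1.96. KRT8 had -1.08, -1.01, -1.12 and -0.91 (mean -1.03, SE 0.02, adjusted p = 0.0316), and its second probe gave -0.44 with an adjusted p of 0.15. KRT8 and KRT18 have many near-identical pseudogenes, so that signal from other copies could not be separated. The same clones thus had lower levels of KRT8 and KRT18, while CDH1 had a mean ratio of -0.01.

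Of 43 mesenchymal effector genes, limma called 1 higher and 2 lower, and 1 was at least 1.5-fold higher and 6 lower on all 4 arrays. At an unadjusted p under 0.05 there were 22 of the 43, beside 15.3% of all genes. PDGFRA, a receptor of platelet-derived growth factor, fell with log2 ratios of -1.19, -1.03, -1.42 and -1.004 (mean -1.16, SE 0.05, n = 2 clones, limma adjusted p = 0.0214), and CALD1, an actin-binding protein, with a mean of -0.86 (SE 0.05, adjusted p = 0.0498). CALD1 was no longer called without background correction, with median centring or with both channels required above background. COL3A1, the chain of type III collagen, rose with 0.93, 0.89, 0.83 and 0.97 (mean 0.90, SE 0.0043, limma adjusted p = 0.0349). The moderated error of this mean was 0.055. Its other 2 probes had means of 0.75 and 0.62, and on replicate 1 of sh-G2 one of them was at -0.63. Limma did not call COL3A1 by the median of its probes, and COL3A1 did not pass the 1.5-fold rule with the software's own ratios or with the series matrix. The proteoglycans lumican and decorin differed most in level. LUM had log2 ratios of -4.65 and -4.51 in sh-G1 and of -2.08 and -2.01 in sh-G2 (adjusted p = 0.221), and DCN had -4.12 and -4.37 in sh-G1 and -2.07 and -2.11 in sh-G2 (adjusted p = 0.187). POSTN, a matrix protein, had -2.43, -1.97, -3.36 and -3.33 (mean -2.77, SE 0.57, adjusted p = 0.0885), and COL6A2 a mean of -1.24 (SE 0.42, adjusted p = 0.188) with -0.39 by its second probe, so that the median of its probes did not pass the 1.5-fold rule. Dye-swapped arrays of each clone lay close together for LUM and DCN, and the clones lay far apart, which widened the error over clones.

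None of 36 other transition-related transcription factors and corepressors passed limma (3 at an unadjusted p under 0.05) or the 1.5-fold rule, and the one furthest from 0 was ID4, an inhibitor of helix-loop-helix factors, with a mean of -0.74 (adjusted p = 0.12). Of 30 ligands, receptors and mediators of TGF-beta and other inducing pathways, 0 passed limma (8 at an unadjusted p under 0.05) and 1 was 1.5-fold lower on all 4 arrays. It was TGFB2, a ligand of the TGF-beta family, with -1.49 and -1.45 in sh-G1 and -2.80 and -2.65 in sh-G2 (mean -2.10, SE 0.63, n = 2 clones, limma adjusted p = 0.157), and its second probe had a mean of -0.69. Of 30 beta-catenin turnover and target genes, 0 passed limma (4 at an unadjusted p under 0.05) and 1, APC2, was 1.5-fold lower on all 4 arrays (mean -1.35, SE 0.25, adjusted p = 0.0813). APC2 encodes a relative of the APC tumour suppressor. Its other 3 probes had means of -1.11, -0.44 and -0.06 and so did not all show the difference, and their median did not pass the 1.5-fold rule. AXIN2 and CCND1, targets of beta-catenin, had means of 0.41 (adjusted p = 0.147) and -0.43 (adjusted p = 0.458).

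All 13 probes were well above background in both channels on every array, but this mark alone does not show that a gene is expressed. Of 11 measured leukocyte and endothelial markers, which a clonal line should lack, 10 were also well above background in both channels on all 4 arrays, and the exception was PECAM1. CD3E, a T cell receptor subunit, had raw intensities of 851.5 to 1501, and PTPRC, the common leukocyte antigen, of 156 to 288.6. All 11 had mean log2 ratios between -0.07 and 0.06, and 0 passed limma (0 at an unadjusted p under 0.05) or the 1.5-fold rule. The brightest of these markers, ITGAM and KDR, had mean log2 signals of 11.32 and 10.73 in the ctrl channel. Those of CDH2 and ZEB2 were 10.59 and 10.46. The mark by itself therefore does not show that a member was expressed. This holds for dim members such as CDH1, SNAI1 and ZEB1 and also for members as bright as CDH2 and ZEB2. Raw intensities of SNAI2 were 12560 to 37660.6 and those of the brighter TWIST1 probe 12740.5 to 24117.8. Brightness also depends on the probe, so these values give no order of the genes. Of 14 genes listed for ovarian tumours, FOXL2 and INHA among them, all were well above background. Of these, 0 passed limma (1 at an unadjusted p under 0.05) or the 1.5-fold rule. Their mean log2 ratios lay between -0.42 (WFDC2) and 0.02 (EMX2). The knockdown clones differed from the ctrl clone by lower CDH2 and ZEB2 signals on every array. Mean log2 ratios of VIM, CDH1 and CTNNB1 lay between -0.05 and 0.01.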

How the data were processed

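The authors scanned the arrays with Agilent's software and deposited, for each spot, median intensity and local background intensity in both channels, flags, and the software's log10 ratio of Cy5 over Cy3. The submitters' notes give Feature Extraction 8.5.1.1 and the file headers 10.5.1.1. The series matrix deposited by the authors holds these log10 values, but for the second sh-G1 array it holds their error, so this array was left out there. P-values of the software were not used. From median intensities, background was corrected with normexp (offset 50), log2 ratios were normalised by loess within arrays (control spots at weight 0), outlier spots were dropped, spots of a probe were averaged, and a probe stayed in (39152 of 40905) when each array had 1 or both channels marked as well above background. The design named mean spot intensity, and the median was used in its place. Mean ratios of the clones were tested against 0 with limma 3.58.1 in R 4.3.3 (lmFit, eBayes with trend, Benjamini-Hochberg over all probes kept), the clones against each other with a dye term, and random blocks with statmod 1.5.0. The steps were tested on simulated data. Probes were named through the RefSeq gene table of GRCh38.p14. The text names all 10 genes, GALNT3, and from each list the genes whose brightest probe passed limma or was 1.5-fold changed on all 4 arrays, at most 8 per list. Others were chosen after their values were seen. The members and lists were chosen with earlier results of these data known. Replicates of a clone may share an RNA extract, since nothing says otherwise, and p-values then measure only the spread between 2 clones, with the number of arrays limiting the precision. Alternatives were the software's ratios, the series matrix, no background correction or an offset of 0, centring on the median, other filters, outlier spots kept, other thresholds and probe rules, a random block, a spread for the ctrl clone, and each array or clone left out.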

Additional observations from a re-analysis of the deposited data

Results flagged for a closer look

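The dimmer TWIST1 probe (A_23_P71073) was the only probe of the 10 genes, and of the genes named from the related lists, for which both arrays of one clone lay above 0 and both of the other below 0. The mean log2 ratio of sh-G1 was 0.27 and that of sh-G2 was -0.13. The log2 difference between the clones was -0.40 (moderated SE 0.10), with a limma adjusted p of 0.447. The brighter TWIST1 probe differed by -0.17 (moderated SE 0.17, limma adjusted p = 0.926).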

How the results depend on the processing

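The 1.5-fold count of 2 member probes (CDH2 and ZEB2) was the same under every change of background, scaling, filter or array, was 3 without clone sh-G1 (SNAI2 added), and was 1 (ZEB2) at 2-fold on all 4 arrays. The limma count of 0 member probes became 1 with the software's ratios and 2 with the clone as a random block. It stayed 0 under the other changes of background, scaling or filter with all 4 arrays. The series matrix and the fits without any 1 array leave 1 clone in 1 dye orientation, so their limma counts are not given. Over the related lists, the limma count of 6 genes became 21 with the series matrix, 38 with the random block and 0 with a spread for the ctrl clone, and was 6 to 23 without any 1 array. Their 1.5-fold count of 13 became 6 at 2-fold, and with the software's ratios or the series matrix it held 0 higher genes in place of 1. The cause was not tested. CDH2, ZEB2, EPCAM, SNAI2, ZEB1 and the dimmer TWIST1 probe kept the sign of their mean in every fit with both clones.

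The means near 0 changed sign. CDH1 was 0.033 with the software's ratios, 0.030 with median centring and 0.067 with the series matrix, and under median centring VIM (A_23_P161194) was -0.032 and CTNNB1 (A_23_P29499) -0.036. Without any 1 array, the means ranged from -0.034 to 0.019 for CDH1, -0.17 to 0.18 (A_23_P161194) and -0.19 to 0.11 (A_23_P161190) for VIM, -0.20 to 0.091 (A_23_P29495) and -0.28 to 0.29 (A_23_P29499) for CTNNB1, -0.36 to 0.0067 for SNAI1 and -0.155 to 0.029 for TWIST1 (A_23_P71067). All 4 arrays share a slide, and replicate numbers mark the dye orientation. Without the replicate block, which here is the dye term, 0 member probes differed between the clones, as with it. The difference between clones could not be fitted with a clone left out. Signal over background limits CDH1 and GALNT3.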
